A study of Mus musculus with 6 samples.

Results

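Hox genes encode homeodomain transcription factors. In the mouse they lie in 4 clusters, HoxA to HoxD, and are numbered by their place in the cluster, so that genes of the same number in different clusters are paralogs. The genes described here were all 39 rows of a table of 24413 genes whose symbol was Hoxa, Hoxb, Hoxc or Hoxd followed by a number. The rule reads the symbol alone and no measured value. HoxA has 11 of them, HoxB 10, HoxC 9 and HoxD 9.

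Expression was measured by RNA-seq in W-EGFP cells, which the labels describe as interstitial cells of the testis of mouse fetuses at E16.5. The cells came from mice that carry the FLE-EGFP transgene, in which the fluorescent protein EGFP is placed under an enhancer of Nr5a1 that is active in fetal Leydig cells. Cells of the SAG group were exposed to 0.5 µM SAG, an agonist of Smoothened, the membrane protein that turns on Hedgehog signalling in the cell. Cells of the DMSO group received the vehicle. Both groups carried the transgene, were treated for 1 hour and were taken as 10000 cells a sample, with 3 libraries a group. The column names of both groups also hold the tag siCnt, which the labels do not explain, and no source says whether the cells had received a control siRNA. No source says that replicates came from separate animals or cultures, so p-values rest on a spread between samples that may be technical.

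Along the body axis, Hox genes are switched on in the order in which they lie in the cluster, low numbers first and towards the head, high numbers later and towards the tail. Retinoic acid is a known inducer of low-numbered Hox genes, Polycomb complexes keep Hox clusters silent, Trithorax proteins counter them, and the TALE proteins of the Meis and Pbx families bind DNA together with Hox proteins. In the urogenital tract, posterior Hox genes pattern the ducts that run beside the gonad.

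The libraries held 18486396 to 25491259 reads in the DMSO group and 7694479 to 8804335 in the SAG group, a ratio of 2.67 between the mean depths. Spike-in reads were found in SAG libraries alone. Depth, spike-in reads and treatment therefore moved together, and any difference in how the libraries were made cannot be told apart from SAG. Values are a signal, reads scaled by the authors but not to library size alone. A signal of 1 stood for 17.7 to 24.1 reads in a DMSO library and for 7.79 to 9.44 in a SAG library. SAG replicate 3 stood apart from SAG replicates 1 and 2 on the second principal component, which held 20.8% of the variance. In that library 1.67% of reads lay in the ribosomal RNA row Rn45s, against 0.326% to 0.360% in the other 5 libraries. The Hedgehog targets Gli1, Ptch1 and Hhip were called higher. Gli1 had a signal of 0.704, 0.324 and 0.846 in DMSO replicates 1 to 3 and of 32.6, 46.3 and 30.8 in SAG replicates 1 to 3.

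Some markers of fetal Leydig cells, in which the transgene's enhancer is active, were at or near 0, and others were not. Nr5a1, which the transgene's enhancer belongs to, had a signal of 98.8 to 124, whereas the fetal Leydig markers Cyp17a1 and Insl3 had at most 0.290 and 1.24 in any library and Lhcgr was at 0 in all. The 10 fetal Leydig markers summed to 305 to 314 in DMSO libraries and to 404 to 463 in SAG libraries, with 3 of 6 tested called higher and 0 lower and a median log2 fold change of 0.63. The 7 markers of peritubular myoid and smooth muscle cells summed to 20897 to 21839 in DMSO libraries and to 13169 to 14484 in SAG libraries, and all 7 were called lower. The 10 markers of interstitial progenitors summed to 439 to 454 and to 964 to 1141, with 8 of 9 tested called higher and 1 lower. Of all tested genes, 12.9% were called higher and 16.6% lower. The 6 markers of the adrenal cortex summed to 3.35 to 4.16 in DMSO libraries, to 8.57 and 5.19 in SAG replicates 1 and 2 and to 75.1 in SAG replicate 3. The 8 mesonephros and duct markers summed to 5.18 to 7.33 and to 1.76 to 2.97, with Pax2, Lhx1 and Cdh16 at 0. The 7 surface epithelium markers summed to 21.3 to 35.0 and to 13.3 to 16.2. The Sertoli markers summed to 41.6 to 48.0 and 38.7 to 42.3 and the endothelial markers to 34.7 to 41.8 and 38.9 to 53.7, while those of germ cells, macrophages, red cells and neural crest never summed above 3.62. The lists that moved did so along with the Hox genes, and their part in the Hox results was not tested. In bulk RNA, fewer cells of a type and less RNA per cell cannot be told apart.

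Of the 39 Hox genes, 35 had at least 1 read in some library, and Hoxa11, Hoxa13, Hoxb13 and Hoxc12 were at 0 in all 6. A mean signal of at least 1 over all libraries was required for the test, and 18 Hox genes reached it. The last gene inside was Hoxb8, with a mean signal of 1.11, and the first outside was Hoxb7, with 0.826. No HoxA gene was tested, against 5 HoxB, 7 HoxC and 6 HoxD genes. The 21 genes below the minimum never had more than 29 reads in a library. Hoxc13 and Hoxb8 reached the minimum through the DMSO libraries, since their mean in SAG libraries was below 1.

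**Figure D1:**
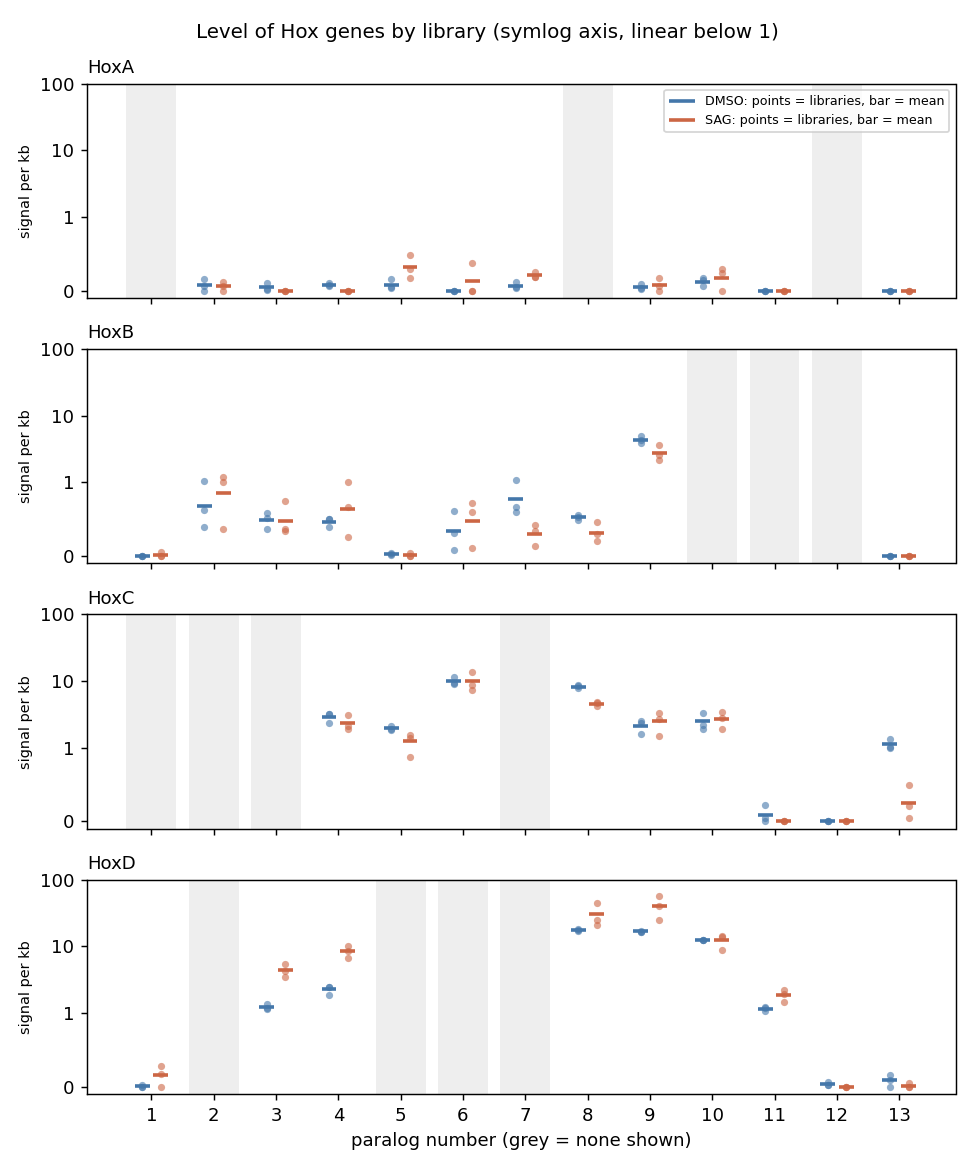
Level of Hox genes as signal per kb of exon (symlog axis, linear below 1), by cluster and paralog number. Points are the 3 libraries of a group and short bars their mean, and grey marks numbers for which none is shown. Hoxd8, Hoxd9, Hoxd10 and Hoxc6 stand highest, and the HoxA panel stays below 1.

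Levels were compared between genes as signal per kb of exon. In DMSO libraries Hoxd8 stood highest at 17.6 ± 0.758 signal per kb (SD, n = 3). Hoxd9 at 16.7 ± 0.290 and Hoxd10 at 12.5 ± 0.191 followed, and Hoxc6 at 9.83 ± 1.27 and Hoxc8 at 8.24 ± 0.471 came next. The libraries of Hoxd8 and Hoxd9 overlapped, and those of the next 3 genes did not. In SAG libraries Hoxd9 at 40.4 ± 15.5 and Hoxd8 at 30.6 ± 13.1 led, and their libraries overlapped. They were followed by Hoxd10 at 12.3 ± 3.16, Hoxc6 at 9.88 ± 3.18 and Hoxd4 at 8.47 ± 1.84, which overlapped among themselves. Hoxd4 held rank 9 of the 39 genes in DMSO libraries and rank 5 in SAG libraries, and Hoxd3 moved from rank 12 to rank 7. In the GENCODE M21 annotation only 37.2% of Hoxd3 and 47.7% of Hoxd4 exon bases are not shared with another gene. How reads in shared bases were counted is unknown, so the levels per kb and ranks of Hoxd3 and Hoxd4 are uncertain. The 5 highest genes of the DMSO libraries carried the numbers 8, 9 and 10 in HoxD and 6 and 8 in HoxC.

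Between SAG and DMSO, 8 of the 18 tested Hox genes passed the test, limma on log2(signal + 1) with Benjamini-Hochberg adjustment over 12550 genes and a threshold of 0.05. Hoxd3, Hoxd4, Hoxd8, Hoxd9 and Hoxd11 rose, and Hoxc8, Hoxc13 and Hoxb9 fell. Over all tested genes 29.6% were called, 12.9% higher and 16.6% lower. The 18 Hox genes had a median log2 fold change of 0.04, against -0.03 for all tested genes, and a median absolute log2 fold change of 0.47 against 0.30. All 5 genes called higher lie in HoxD, where 6 were tested, and HoxD had a median log2 fold change of 0.94. With no filter on low genes, where 35 Hox genes were tested, the 4 called higher were Hoxd3, Hoxd4, Hoxd9 and Hoxa7. The 12 tested genes of the other clusters gave 0 calls higher and 3 lower, with a median of -0.27 in HoxC and -0.05 in HoxB. Of the 3 lower, Hoxc13 reached the minimum signal only through the DMSO libraries, so the filter favoured a fall. With a minimum of 5, 11 Hox genes were tested, 4 called higher and 2 lower. In limma, edgeR and DESeq2 alike, 0 of the 12 HoxB and HoxC genes were higher, and 0 of the 6 HoxD genes lower, even at an unadjusted p under 0.05. The libraries of the groups did not overlap for 10 of the 18 Hox genes, against 48.0% of all tested genes, so that share is near the background. SAG libraries lay above for 5 (21.2% of all genes) and below for 5 (26.8%). The 5 below include Hoxc13 and Hoxb8, which reached the minimum through the DMSO libraries.

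**Figure D2:**
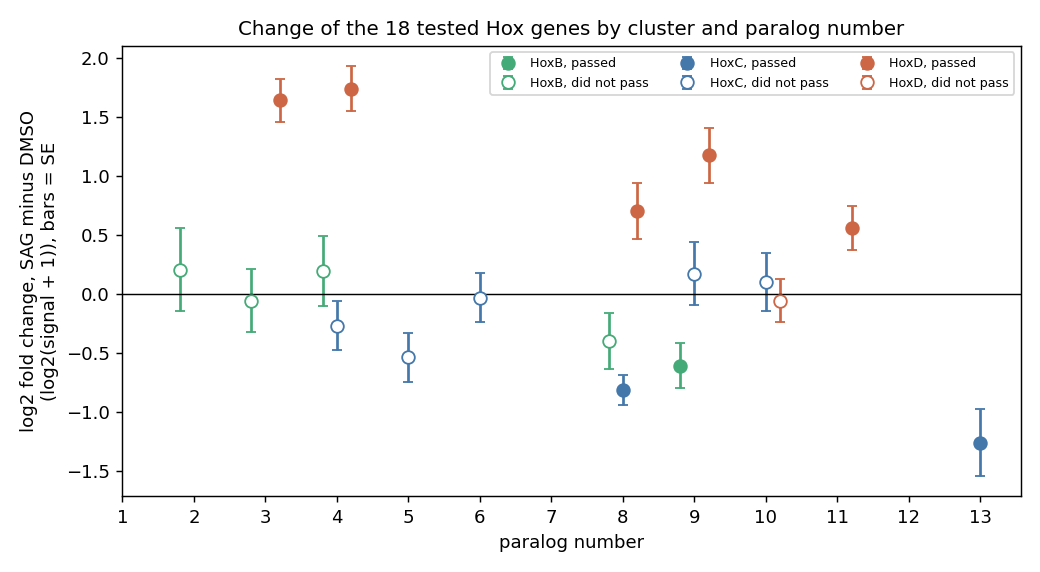
Log2 fold change (SAG minus DMSO, from log2 of signal + 1) of the 18 tested Hox genes against paralog number, coloured by cluster; bars are the standard error. Filled points passed the test: 5 HoxD genes above 0, and Hoxc8, Hoxc13 and Hoxb9 below it.

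The HoxD cluster spans 96.8 kb of mouse chromosome 2 (GRCm38 chr2:74668310-74765142), with Hoxd13 first and Hoxd1 last, all on the plus strand. Hoxd3 and Hoxd4, low-numbered genes known for patterning the neck vertebrae, showed the largest rises of the cluster. Hoxd3 had a signal of 4.93, 5.64 and 4.85 in DMSO replicates 1 to 3 and of 14.5, 22.7 and 18.1 in SAG replicates 1 to 3. The lowest SAG library lay above the highest DMSO library, and replicate 2 was the highest of the SAG group. The mean went from 5.14 ± 0.435 to 18.4 ± 4.09 (SD, n = 3 each), 3.59-fold higher, with a log2 fold change of 1.64 (SE 0.18, limma adjusted p = 2.85e-04). Hoxd4 had 5.51, 7.26 and 7.33 in DMSO libraries and 19.4, 30.3 and 25.2 in SAG libraries. Its order among the SAG libraries was that of Hoxd3, and its groups did not overlap either. The mean of Hoxd4 went from 6.70 ± 1.03 to 25.0 ± 5.43, 3.73-fold higher, with a log2 fold change of 1.74 (SE 0.19, limma adjusted p = 2.48e-04).

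These genes are not separate measurements in full. In the GENCODE M21 annotation 62.3% of Hoxd3 exon bases and 52.3% of Hoxd4 exon bases are shared with another gene on the same strand, each other and the readthrough gene Gm28230. The annotation the authors counted on is not given in the sources used here, so how shared reads were split is unknown. Hoxd3 also shares 8.78% of exon bases with Hoxd3os1 and Haglr on the opposite strand and Hoxd4 11.8% with Hoxd3os1, and with the strand setting not given, reads of these RNAs could not be told apart. With their reads joined into 1 value, the signal was 10.4, 12.9 and 12.2 in DMSO libraries and 33.9, 53.0 and 43.3 in SAG libraries. The joined mean rose from 11.8 ± 1.27 to 43.4 ± 9.51, and the joined gene passed the test, so that HoxD then counted 4 genes called higher of 5.

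Hoxd8 and Hoxd9 lie next to each other in the middle of the cluster and were the most abundant Hox genes in both groups. Hoxd9, which takes part in limb and lower spine patterning, had a signal of 36.5, 35.4 and 35.4 in DMSO libraries and of 54.0, 84.9 and 120 in SAG libraries. The DMSO libraries were close to each other, whereas SAG replicate 3 was the highest and SAG replicate 1 the lowest of its group, and the groups did not overlap. The mean of Hoxd9 rose from 35.8 ± 0.618 to 86.4 ± 33.1, 2.41-fold, with a log2 fold change of 1.18 (SE 0.23, limma adjusted p = 0.00564). Hoxd8 had 48.9, 49.9 and 45.9 in DMSO libraries and 68.7, 58.1 and 125 in SAG libraries. SAG replicate 3 was far above the other SAG libraries, all of which were above the DMSO libraries. The mean of Hoxd8 rose from 48.2 ± 2.08 to 83.9 ± 36.0, 1.74-fold, with a log2 fold change of 0.71 (SE 0.24, limma adjusted p = 0.0487).

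SAG replicate 3, the library in which both were highest, was also the one with the adrenal markers and the ribosomal RNA named above. Without it Hoxd9 rose 1.94-fold, with a log2 fold change of 0.90, and Hoxd8 rose 1.31-fold, with a log2 fold change of 0.38 and a limma adjusted p of 0.00217. The rise of Hoxd3 without that library was 3.62-fold and that of Hoxd4 3.71-fold. Hoxd8 lost its call when any DMSO library or SAG replicate 1 was left out, with adjusted p between 0.0680 and 0.143, and with no filter, a minimum of 5 or no trend term, at 0.0530 to 0.0873.

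Hoxd10, the gene beside Hoxd9 on its posterior side, is known for its part in the motor neurons of the hindlimb. It did not pass the test. Its signal was 22.4, 23.0 and 23.0 in DMSO libraries and 26.4, 25.0 and 15.8 in SAG libraries. SAG replicates 1 and 2 were above and SAG replicate 3 below every DMSO library, and the log2 fold change was -0.06 (SE 0.18, limma adjusted p = 0.845). Without SAG replicate 3 it was 0.17, with an adjusted p of 0.263, and with libraries scaled by their total alone it was 0.08. Beyond it, Hoxd11, which with its paralogs shapes the kidney and forearm, had 5.13, 4.99 and 4.57 in DMSO libraries and 6.04, 9.22 and 8.09 in SAG libraries. These groups did not overlap, and the mean of Hoxd11 went from 4.90 ± 0.295 to 7.78 ± 1.61, 1.59-fold higher, with a log2 fold change of 0.56 (SE 0.19, limma adjusted p = 0.0474). In the annotation Hoxd11 shares 10.8% and Hoxd10 5.73% of exon bases with the readthrough gene Gm28309. The call of Hoxd11 was lost with the reads of all libraries thinned to the smallest, at an adjusted p of 0.0510, with no filter on low genes, at 0.0893, and on leaving out any DMSO library or SAG replicate 2, at 0.115 to 0.154.

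Ratios within a library do not depend on how libraries were scaled. Hoxd9 over Hoxd10 was 1.63, 1.54 and 1.54 in DMSO libraries and 2.05, 3.39 and 7.61 in SAG libraries. Hoxd4 over Hoxd10 went from 0.246, 0.316 and 0.319 to 0.738, 1.21 and 1.59, and Hoxd4 over Hoxd8 from 0.113, 0.145 and 0.160 to 0.283, 0.522 and 0.201. Hoxd11 over Hoxd10 overlapped between groups, at 0.199 to 0.230 and 0.229 to 0.512. Of 13 such ratios, 12 did not overlap between groups. Each of the 12 had p = 0.1 in an exact two-sided permutation test, and 0.108 after adjustment over the 13. A p of 0.1 is the smallest that 3 against 3 libraries allow. No ratio could therefore pass the threshold used for calls, and the test decides nothing. The genes in the ratios were picked after their values were known, and several ratios share Hoxd10. No share of other gene pairs without overlap is given, so the count of 12 has no background to be set against.

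The ends of HoxD were almost unread. Hoxd1, the most anterior member, had 1 read in the DMSO libraries and 3, 5 and 0 reads in SAG replicates 1 to 3. Hoxd12 had 4, 1 and 1 reads in DMSO libraries and 0 in each SAG library, and Hoxd13, which shapes digits and external genitalia, had 10, 5 and 0 reads against 0, 0 and 1. At the lower depth of the SAG libraries, no difference in Hoxd12 or Hoxd13 was detectable.

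**Figure D3:**
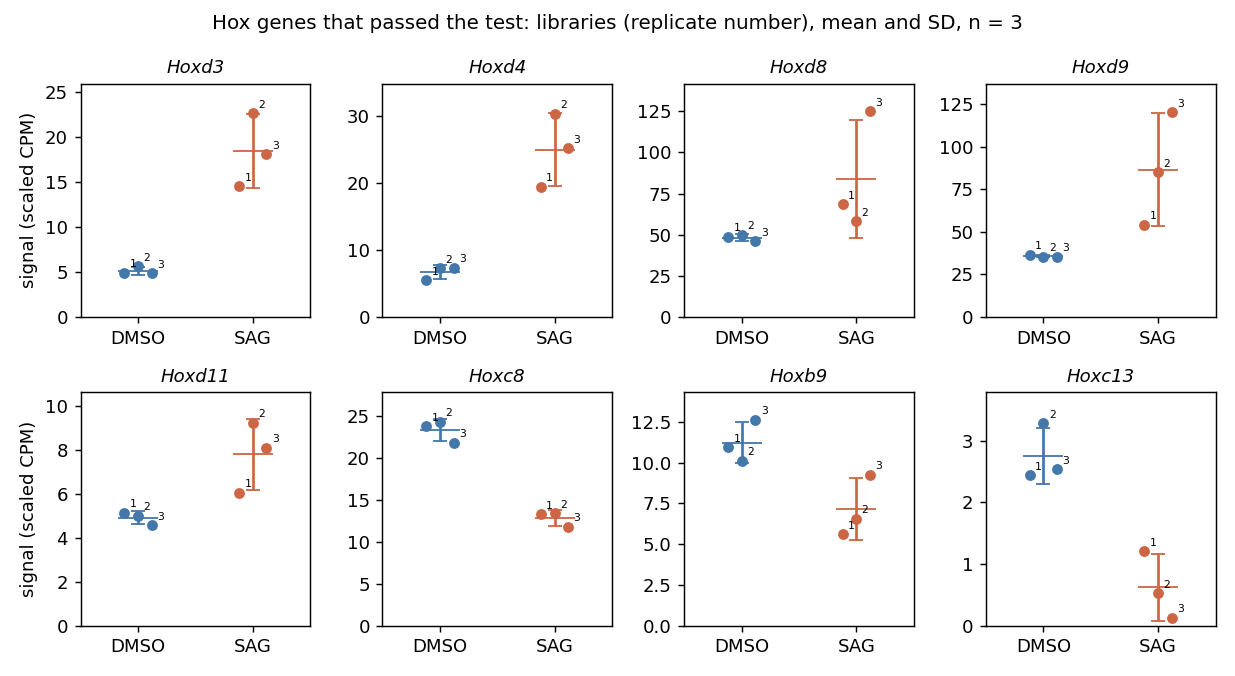
Signal (reads as scaled by the authors) of the 8 Hox genes that passed the test, by library with its replicate number. The horizontal line is the mean and the bar the SD of 3 libraries. All SAG libraries lie above the DMSO libraries for the 5 HoxD genes and below them for Hoxc8, Hoxb9 and Hoxc13.

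Promoter sequences of Hoxd10, Hoxd9, Hoxd8, Hoxd3 and Hoxd4 are shown because these neighbours include the 4 HoxD genes with the largest rises and Hoxd10, which did not pass. Each window runs from 250 bases before to 50 after the RefSeq start on the plus strand of GRCm38.p6. The windows are chr2:74691641-74691940 for Hoxd10, chr2:74697513-74697812 for Hoxd9, chr2:74704365-74704664 for Hoxd8, chr2:74711743-74712042 for Hoxd3 and chr2:74721728-74722027 for Hoxd4. Capitals mark AGGTCA or its reverse complement TGACCT, the half-site that nuclear receptors such as those for retinoic acid, and Nr5a1 with added bases, recognise.
Hoxd10: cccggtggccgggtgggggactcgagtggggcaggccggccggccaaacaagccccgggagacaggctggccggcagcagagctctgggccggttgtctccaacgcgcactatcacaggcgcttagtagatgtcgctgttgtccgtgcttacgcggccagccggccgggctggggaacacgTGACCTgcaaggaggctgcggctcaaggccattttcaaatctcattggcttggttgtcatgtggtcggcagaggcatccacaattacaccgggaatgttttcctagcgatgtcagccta
Hoxd9: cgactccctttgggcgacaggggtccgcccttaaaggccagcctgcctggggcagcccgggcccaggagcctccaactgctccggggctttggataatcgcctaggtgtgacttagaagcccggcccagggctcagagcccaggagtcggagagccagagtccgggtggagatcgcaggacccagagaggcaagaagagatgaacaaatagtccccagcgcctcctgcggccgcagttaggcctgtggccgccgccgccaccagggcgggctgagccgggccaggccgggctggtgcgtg
Hoxd8: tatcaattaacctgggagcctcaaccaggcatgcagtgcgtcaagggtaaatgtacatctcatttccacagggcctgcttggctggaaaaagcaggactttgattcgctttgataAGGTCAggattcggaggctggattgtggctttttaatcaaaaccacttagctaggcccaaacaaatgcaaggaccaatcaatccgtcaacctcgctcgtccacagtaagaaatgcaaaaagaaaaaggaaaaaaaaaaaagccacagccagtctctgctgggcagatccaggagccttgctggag
Hoxd3: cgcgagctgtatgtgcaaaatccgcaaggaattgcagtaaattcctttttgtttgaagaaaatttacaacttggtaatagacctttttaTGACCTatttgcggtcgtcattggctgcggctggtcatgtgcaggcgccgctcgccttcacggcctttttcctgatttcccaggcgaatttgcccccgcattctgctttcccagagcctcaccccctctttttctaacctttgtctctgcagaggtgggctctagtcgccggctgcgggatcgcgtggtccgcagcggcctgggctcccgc
Hoxd4: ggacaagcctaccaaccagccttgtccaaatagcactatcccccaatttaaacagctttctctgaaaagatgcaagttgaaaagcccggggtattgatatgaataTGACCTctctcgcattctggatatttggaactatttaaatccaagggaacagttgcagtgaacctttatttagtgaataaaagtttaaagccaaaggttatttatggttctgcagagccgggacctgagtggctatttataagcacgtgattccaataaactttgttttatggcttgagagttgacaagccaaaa

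The half-site stands in the windows of Hoxd3, Hoxd4, Hoxd8 and Hoxd10, and its letters are not in that of Hoxd9 or in either of the 2 windows of Hoxd11, which also rose. Its first base lies 161 bases before the start of Hoxd3, 145 before that of Hoxd4, 135 before that of Hoxd8 and 69 before that of Hoxd10. The RefSeq table held windows for 22 of the 39 Hox genes, 24 windows in all, and 7 of these, or 29.2%, held the half-site on either strand. Over the whole table, 16.3% of 32851 windows held it. The other 3 Hox windows with it were those of Hoxa5, Hoxb4 and Hoxc4. GACCACCCA, the consensus of the Gli factors that act at the end of the Hedgehog pathway, stood in 0 of the 24 Hox windows, on either strand, and in 0.253% of all windows. CCAAT stood in 62.5% of the Hox windows against 37.4% of all, and TATAAA in 16.7% against 13.6%, Hoxd4 among them. Hox windows had a median GC content of 57.7% against 52.7%. A match says only that these letters are present. GACCACCCA is so rare that 0 matches in 24 windows are usual and say nothing about Gli binding.

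HoxC lies on chromosome 15 (GRCm38 chr15:102921103-103036852) and has no genes numbered below 4. None of its 7 tested genes rose, and Hoxc8 and Hoxc13 fell. Hoxc8, which patterns the thorax and its vertebrae, had a signal of 23.8, 24.4 and 21.8 in DMSO libraries and of 13.3, 13.5 and 11.8 in SAG libraries. Both groups were tight and lay well apart. The mean of Hoxc8 went from 23.3 ± 1.33 to 12.9 ± 0.902, 1.82-fold lower, with a log2 fold change of -0.81 (SE 0.13, limma adjusted p = 0.00179). Hoxc13, which is known for its part in hair and nails, was the lowest of the called genes. Its signal was 2.44, 3.28 and 2.54 in DMSO libraries, from 45 to 71 reads, and 1.21, 0.530 and 0.128 in SAG libraries, from 11, 5 and 1 reads. The mean of Hoxc13 went from 2.75 ± 0.459 to 0.622 ± 0.546, with a log2 fold change of -1.26 (SE 0.28, limma adjusted p = 0.00948), and its call was lost without DMSO replicate 2, at an adjusted p of 0.0516. The log2 fold change of Hoxc13 was -2.30 at a pseudocount of 0.1, -2.06 in edgeR and -2.08 in DESeq2, and the 4.43-fold lower mean ranged from 3.17-fold to 8.37-fold with 1 library left out.

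Hoxc6, the most abundant HoxC gene, did not pass. It had a signal of 27.2, 21.4 and 22.4 in DMSO libraries and of 21.1, 32.4 and 17.9 in SAG libraries, so the groups overlapped, and the log2 fold change was -0.03 (SE 0.21, limma adjusted p = 0.931), or 0.11 with libraries scaled by their total alone. Within a library, Hoxc6 over Hoxc8 was 1.14, 0.880 and 1.03 in the DMSO group and 1.59, 2.41 and 1.51 in the SAG group. Hoxc5 was lower in every SAG library, at 2.70 to 4.83 against 5.64 to 6.46, but its log2 fold change of -0.54 did not pass (limma adjusted p = 0.0797). Hoxc4, Hoxc9 and Hoxc10 overlapped between groups, with log2 fold changes of -0.27, 0.17 and 0.10 and adjusted p of 0.353 to 0.783. Hoxc11 had at most 8 reads in a library and 0 in the SAG group.

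HoxB (GRCm38 chr11:96194316-96368256) had Hoxb9 as its most abundant gene. Hoxb9, which acts with its paralogs in the thorax, had a signal of 10.9, 10.1 and 12.6 in DMSO libraries and of 5.60, 6.57 and 9.25 in SAG libraries. SAG replicate 3 was the highest of its group and still below every DMSO library. The mean went from 11.2 ± 1.28 to 7.14 ± 1.89, 1.57-fold lower, with a log2 fold change of -0.61 (SE 0.19, limma adjusted p = 0.0408). Without SAG replicate 3 the log2 fold change of Hoxb9 was -0.79 (adjusted p = 5.78e-04), but the call was lost on leaving out any of the other 5 libraries, at adjusted p of 0.0829 to 0.158. It was also lost when libraries were scaled by their total alone, at -0.48 and 0.0801, or thinned to the smallest, at -0.56 and 0.107, and with no filter on low genes, at 0.0804.

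The other 4 tested HoxB genes, Hoxb2, Hoxb3, Hoxb4 and Hoxb8, had mean signals of 0.836 to 2.98 in either group and did not pass. Hoxb8 was lower in every SAG library, at 0.530 to 1.21 against 1.29 to 1.47, with a log2 fold change of -0.40 (limma adjusted p = 0.237). Hoxb2, Hoxb3 and Hoxb4, genes of the hindbrain, overlapped between groups, with log2 fold changes of 0.21, -0.05 and 0.20, that of Hoxb3 being 0.04 with libraries scaled by their total alone. Hoxb3 shares 52.9% and Hoxb2 27.3% of exon bases with the opposite-strand RNA Hoxb3os, and the strand setting of the counting is not given in the sources used here, so reads of sense and antisense RNA could not be told apart. Of the untested members, Hoxb7 had 22, 22 and 29 reads in DMSO libraries and 2, 5 and 5 in SAG libraries, a signal of 0.911 to 1.64 against 0.220 to 0.642. Hoxb6 overlapped between groups at 0.169 to 1.41, Hoxb5 had at most 3 reads in a library, and Hoxb1 had 1 read in all.

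HoxA (GRCm38 chr6:52155590-52260880, minus strand) was read at a low level throughout, and no gene of it reached a mean signal of 1. Hoxa5 had 7, 2 and 1 reads in DMSO libraries and 5, 3 and 7 in the shallower SAG libraries, a signal of 0.0564 to 0.290 against 0.318 to 0.899. Hoxa7 was likewise above in every SAG library, at 0.514 to 0.742 against 0.113 to 0.324, from 2 to 7 reads a library. With no filter on low genes Hoxa7 was called higher, with a log2 fold change of 0.43 (limma adjusted p = 0.0353). Hoxa3 had 16, 2 and 3 reads in DMSO libraries and 0 in each SAG library, and Hoxa4 3, 2 and 3 reads against 0. Hoxa9 and Hoxa10, which are known for patterning the reproductive ducts, overlapped between groups, with at most 14 reads in a library. Hoxa2 overlapped too, and Hoxa6 had 3 reads, all in SAG replicate 1.

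Seen by paralog number, members of a group differed by cluster. In group 8, Hoxd8 rose, Hoxc8 fell and Hoxb8 did not pass; Hoxd8 over Hoxc8 was 2.05, 2.05 and 2.10 in DMSO libraries and 5.17, 4.31 and 10.6 in SAG libraries. In group 9, Hoxd9 rose, Hoxb9 fell and Hoxc9 did not pass. Hoxd9 over Hoxb9 was 2.80 to 3.50 in DMSO libraries and 9.65 to 13 in SAG libraries. In group 4, Hoxd4 rose while Hoxb4 and Hoxc4 did not pass, and Hoxd4 over Hoxc4 went from 0.679, 1.21 and 0.890 to 3.54, 3.86 and 5.16. In group 3, Hoxd3 over Hoxb3 was 1.98 to 3.59 and then 7.13 to 12.8. Grouped by position, 1 of 3 tested anterior genes (numbers 1 to 3) was called higher and 0 lower, 2 of 8 central genes (4 to 8) higher and 1 lower, and 2 of 7 posterior genes (9 to 13) higher and 2 lower. The shares over all tested genes were 12.9% higher and 16.6% lower. Among the posterior genes called lower, Hoxc13 reached the minimum signal only through the DMSO libraries. All 5 genes called higher in this grouping are the HoxD genes named above.

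The make-up of the Hox transcripts moved with the treatment. HoxD held 56.6%, 59.6% and 58.3% of the summed Hox signal per kb in DMSO libraries and 73.3%, 71.5% and 82.6% in SAG libraries. HoxC held 33.5%, 31.9% and 31.6% and then 21.0%, 22.8% and 12.5%. HoxB held 7.85% to 9.12% and then 4.33% to 4.87%, and HoxA at most 1.39% in any library. Hoxd8 and Hoxd9 together made 38.2% to 39.5% of the sum in DMSO libraries and 48.2%, 46.9% and 67.1% in SAG libraries. The summed Hox level was 88.8 ± 2.28 signal per kb in the DMSO group and 128.7 ± 23.7 in the SAG group (SD, n = 3), 104.4, 129.9 and 151.8 in SAG replicates 1 to 3. Shares of a sum are not independent: a higher HoxD share lowers the others. The sums also hold the levels of Hoxd3 and Hoxd4, which are uncertain because of their shared exons.

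**Figure D4:**
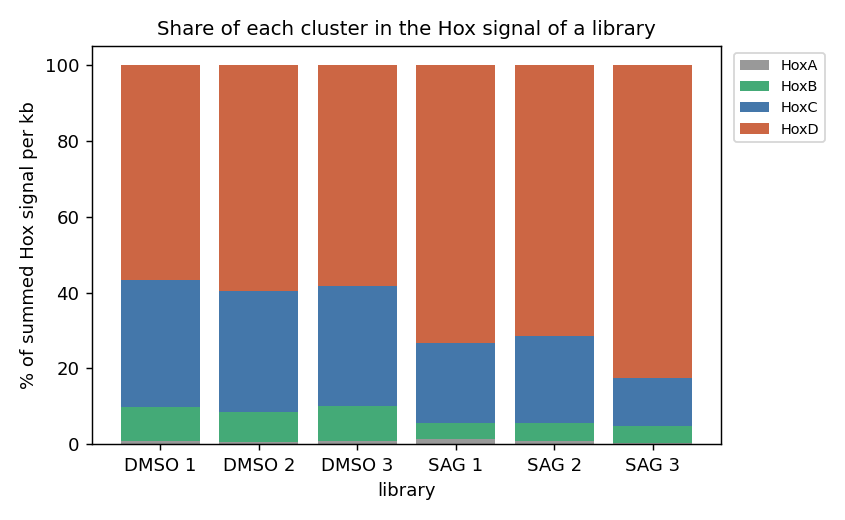
Share of each cluster in the summed Hox signal per kb, 1 stacked bar per library. HoxD takes 56.6% to 59.6% in DMSO libraries and 71.5% to 82.6% in SAG libraries, and the HoxC and HoxB shares are smaller in each SAG library.

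Non-coding RNAs and Evx genes of the clusters were mostly unread. Of 29 listed, 20 were in the table, 2 were tested and neither passed. Those were Hotairm1 in HoxA, with a log2 fold change of 0.05, and Gm53 in HoxB, with 0.37 (limma adjusted p = 0.900 and 0.260). Haglr, an RNA transcribed from the opposite strand between Hoxd1 and Hoxd3, was below the minimum, with a signal of 0.248, 0.277 and 0.282 in DMSO libraries and of 2.53, 1.80 and 0.771 in SAG libraries. All SAG libraries were above the DMSO libraries for Haglr. Evx2, at the posterior end of HoxD, had reads in 1 library.

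Among the 23 other protein-coding genes inside the clusters or within 300 kb of them, 4 did not match the table by symbol and 12 were tested. Of these 12, 3 passed, against 29.6% of all tested genes. Atp5g1 beside HoxB was lower, with a log2 fold change of -0.39 (limma adjusted p = 0.0137), and Calcoco1 and Smug1 beside HoxC were higher, with 0.70 and 0.66 (adjusted p = 0.00238 and 0.0105). Of the 4 at HoxD, which include the readthrough gene Gm28230 inside the cluster, Mtx2 was the only gene tested. It did not pass, with a log2 fold change of 0.26 (adjusted p = 0.277).

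Among proteins that act with or on Hox genes, the TALE co-factors gave 1 call higher and 1 lower of 10 tested. Over all tested genes 12.9% were higher and 16.6% lower, so both counts are near the background. Pbx2 rose from 26.3 ± 2.11 to 37.8 ± 2.50, with a log2 fold change of 0.51 (limma adjusted p = 0.0119), and Pbxip1, a protein that binds Pbx factors, fell by 0.32 on the log2 scale (adjusted p = 0.0293). Meis2 did not pass, at -0.43 (adjusted p = 0.0659). The list had a median log2 fold change of 0.10, against -0.03 for all tested genes.

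Of 31 genes of the Polycomb complexes, 8 were called higher and 5 lower, with a median log2 fold change of 0.13. Over all tested genes 12.9% were higher and 16.6% lower, and the count lower is near that share. Cbx6, a reader of the Polycomb mark, rose from 110 ± 2.50 to 202 ± 9.76, with a log2 fold change of 0.87 (limma adjusted p = 2.11e-04). Ring1, the ubiquitin ligase of complex PRC1, rose by 0.73 on the log2 scale (adjusted p = 0.00267), and Suz12, a core subunit of PRC2, fell by 0.67 (adjusted p = 0.00328). Of the 14 Trithorax genes and demethylases, 1 was called higher and 1 lower, with a median of 0.04. Ash1l, a histone methyltransferase, fell by 0.60 on the log2 scale (adjusted p = 0.00285) and Men1, a subunit of MLL complexes, rose by 0.42 (adjusted p = 0.0162), while Ash2l did not pass, at -0.36 (adjusted p = 0.0679).

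The list of retinoic acid genes and other inputs to Hox genes had 26 members, of which 14 were tested, 3 were called higher and 5 lower, against 12.9% and 16.6% of all tested genes. The list's median log2 fold change was 0.17. Crabp2, which carries retinoic acid to its receptors, had a mean signal of 7.33 ± 0.209 in DMSO libraries and 1.15 ± 0.235 in SAG libraries, 6.35-fold lower, with a log2 fold change of -1.96 (limma adjusted p = 1.21e-04). Aldh1a2, which makes retinoic acid, went from 13.6 ± 2.70 to 5.48 ± 0.594, with a log2 fold change of -1.16 (adjusted p = 0.00151). Dhrs3, which turns retinal back into retinol, went from 19.3 ± 0.813 to 42.1 ± 6.25, with a log2 fold change of 1.08 (adjusted p = 5.52e-04). Cdx1, Cdx2 and Cdx4, activators of posterior Hox genes, and the retinoic acid hydroxylases Cyp26a1 and Cyp26c1 were at 0 in all libraries.

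**Figure D5:**
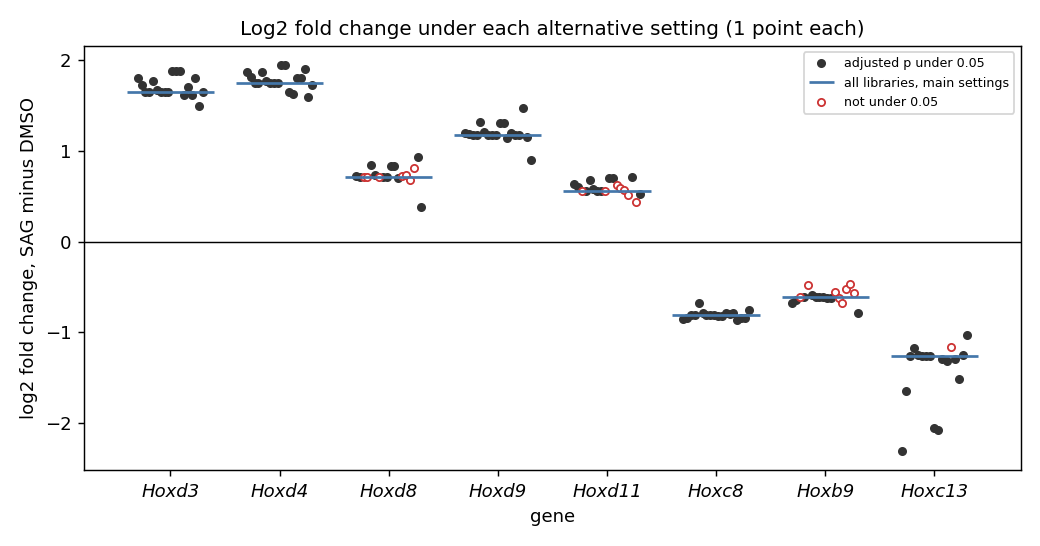
Log2 fold change of the 8 called Hox genes under each alternative setting or left-out library, 1 point each; the blue line is the value reported above. Filled points had an adjusted p under 0.05 and open red points did not: Hoxd3, Hoxd4, Hoxd9 and Hoxc8 have filled points throughout.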

How the data were processed

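RNA-seq values of 6 libraries, 3 SAG and 3 DMSO, were analysed. The authors deposited a table with 24505 rows, named by gene, and 6 columns. Its values are a scaled signal: they are named CPM, but the column sums are unequal and split by group. They were 1042580 to 1055620 in DMSO libraries and 932712 to 988300 in SAG libraries. The tools were, per the submitters' processing notes, STAR, Trim Galore 0.6.4 for trimming, featureCounts 2.0.0 for counting, and an edgeR given as 2.2.1, on GRCm38 (mm10). Annotation, strand setting and filters are not given in the sources used here. In each column 100% of values were whole multiples of the signal of 1 read within a tolerance of 0.01, so whole reads were recovered for the alternatives. The 92 spike-in rows had 0 reads in each DMSO library and 111, 54 and 1205 in SAG replicates 1 to 3, and were left out.

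From the deposited signal, log2(signal + 1) was tested with limma 3.58.1 (R 4.3.3), with a term for group alone and eBayes with trend. The test took in 12550 genes whose signal averaged 1 or more, and p-values were Benjamini-Hochberg adjusted over these and called under 0.05. A log2 fold change is SAG minus DMSO and understates the change of low genes, whereas a fold is a ratio of mean signals. The procedure was tested on simulated data with known changes. It recovered 26.3% of 1.5-fold and 82.7% of 2-fold changes, and 6.96% of its calls were false. In the simulation 99 genes were changed 1.5-fold and 98 genes 2-fold, of 12474, whereas 29.6% of genes were called in the data. The adjustment depends on the share of changed genes, so the simulated recovery need not hold for the reported test. Alternatives included other pseudocounts, filters and scalings, a replicate block, thinned reads, each library left out, and edgeR 4.0.16 and DESeq2 1.42.0 on recovered reads. Signal per kb divides by the exon length in GENCODE M21, which held all 39 genes and gave the gene coordinates. Promoters are from RefSeq (GRCm38.p6).

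The Hox genes, a set defined by symbol, and the lists of other genes were chosen with earlier results of these data known. Values in every library are given for Hox genes that passed the test and for the 8 highest per kb, and ranges for the rest, with some single values and the ratios chosen after they were seen. Of each list of other genes, up to 3 with the smallest p are named, and of genes within 300 kb those that passed. The values gave no sign that replicate numbers pair the samples. Results for some genes of the table are not reported here.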

Additional observations from a re-analysis of the deposited data

How the results depend on the processing

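Of 18 alternatives, none reversed a called Hox gene: 120 of 143 refits kept the call, and the 23 lost were of Hoxb9 (8), Hoxd8 (7), Hoxd11 (7) and Hoxc13 (1), with adjusted p up to 0.158. Leaving out 1 library gave 3 to 5 Hox genes called higher and 1 to 3 lower (3 higher without any DMSO library, 1 lower without DMSO replicate 2), and 901 to 2463 genes higher and 1086 to 3373 lower of all tested. With no filter 4 were higher, Hoxa7 among them, and 2 lower. Joining the reads of Hoxd3 and Hoxd4, an alternative chosen after seeing the data, gave 4 higher and 3 lower. Scaling by library total alone moved the median log2 fold change over all tested genes from -0.03 to 0.10 and the calls from 1625 higher and 2084 lower to 2473 and 1260. It gave Hoxb3 0.041, Hoxc6 0.11 and Hoxd10 0.081. edgeR gave these 3 genes 0.024, 0.051 and 0.019, and DESeq2 0.021, 0.049 and 0.019, without a call. With 1 library left out, the log2 fold change ranged from -0.053 to 0.50 for Hoxb4, from -0.31 to 0.089 for Hoxb3, from -0.025 to 0.57 for Hoxb2, from -0.062 to 0.30 for Hoxc10, from -0.037 to 0.46 for Hoxc9, from -0.27 to 0.15 for Hoxc6 and from -0.19 to 0.17 for Hoxd10, all uncalled throughout. With the replicate block, 4 Hox genes were higher and 3 lower, and Hoxd11 lost its call (limma adjusted p = 0.0645). Deviations of samples of the same number correlated at -0.023, 0.033 and -1.7e-04, against -0.033 to 0.037 for other pairs. The values thus gave no sign of pairing, but 3 libraries a group are too few to exclude it. Where no value here shows why a result changed, the cause was not tested. The SAG libraries' lower depth limits Hox genes of few reads.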
